A study of Mus musculus with 6 samples.

Results

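Fibroblast growth factor (FGF) ligands and their receptors were examined in gastruloids, mouse stem cell aggregates in culture that model the laying down of the body axis, after treatment with the synthetic glucocorticoid budesonide. The 9 genes were taken by symbol: the ligands Fgf4, Fgf5, Fgf8, Fgf15 and Fgf17 and the receptors Fgfr1, Fgfr2, Fgfr3 and Fgfr4. All 9 were among the 53819 symbols of the count table, and all 9 had enough reads to be tested, as did 17155 genes in all. Messenger RNA was sequenced from 3 libraries of aggregates kept with budesonide for 80 h and from 3 libraries of untreated aggregates. Every library came from the single ESC line E14, with no genetic change named in the labels. The labels name neither a vehicle nor a collection time for the untreated aggregates, so budesonide cannot be told apart from a difference in either. Separate cultures are not stated for the replicates either, and the p-values therefore reflect the spread among these libraries alone, possibly a technical one.

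FGF ligands are secreted proteins that bind receptor tyrosine kinases together with heparan sulfate, and the occupied receptor signals through adaptor proteins to RAS and the kinases MEK and ERK. In mouse embryonic stem cells FGF signalling to ERK drives the exit from the naive state, and in the gastrulating embryo FGF ligands of the primitive streak and tailbud direct mesoderm formation and axis elongation. Different ligands mark different stages, Fgf4 the early pluripotent cells, Fgf5 the epiblast after implantation, and Fgf8 and Fgf17 the streak and later the boundary of midbrain and hindbrain.

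With budesonide the ligands changed in opposite directions: Fgf4 rose 2.97-fold, while Fgf8 fell 10.9-fold, Fgf15 2.37-fold, Fgf17 2.0-fold and Fgf5 1.75-fold. Among the receptors the changes were 2-fold or less, with Fgfr2 1.5-fold higher, Fgfr1 1.23-fold lower, Fgfr4 1.84-fold higher in a call that rested on few reads, and Fgfr3 not past the test. Of the 9 genes, 8 passed the edgeR quasi-likelihood test at a threshold of 0.05 after Benjamini-Hochberg adjustment over all tested genes, where 28.7% of all tested genes did. By direction, 3 of the 9 rose, against 15.2% of all tested genes, and 5 fell, against 13.5%. The libraries of the 2 groups did not overlap for 8 of the 9, against 39.6% of all tested genes (19.8% in either direction alone). Fgf4, Fgf8 and Fgf15 passed with a change over 2-fold, as did 5.1% of all tested genes. The 9 genes were chosen with earlier results of these data known, so these comparisons describe the list and do not test it. The median log2 fold change (budesonide over untreated, here and throughout) was -1.0 over the 5 ligands and 0.14 over the 4 receptors, beside -0.02 over all tested genes.

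**Figure D1:**
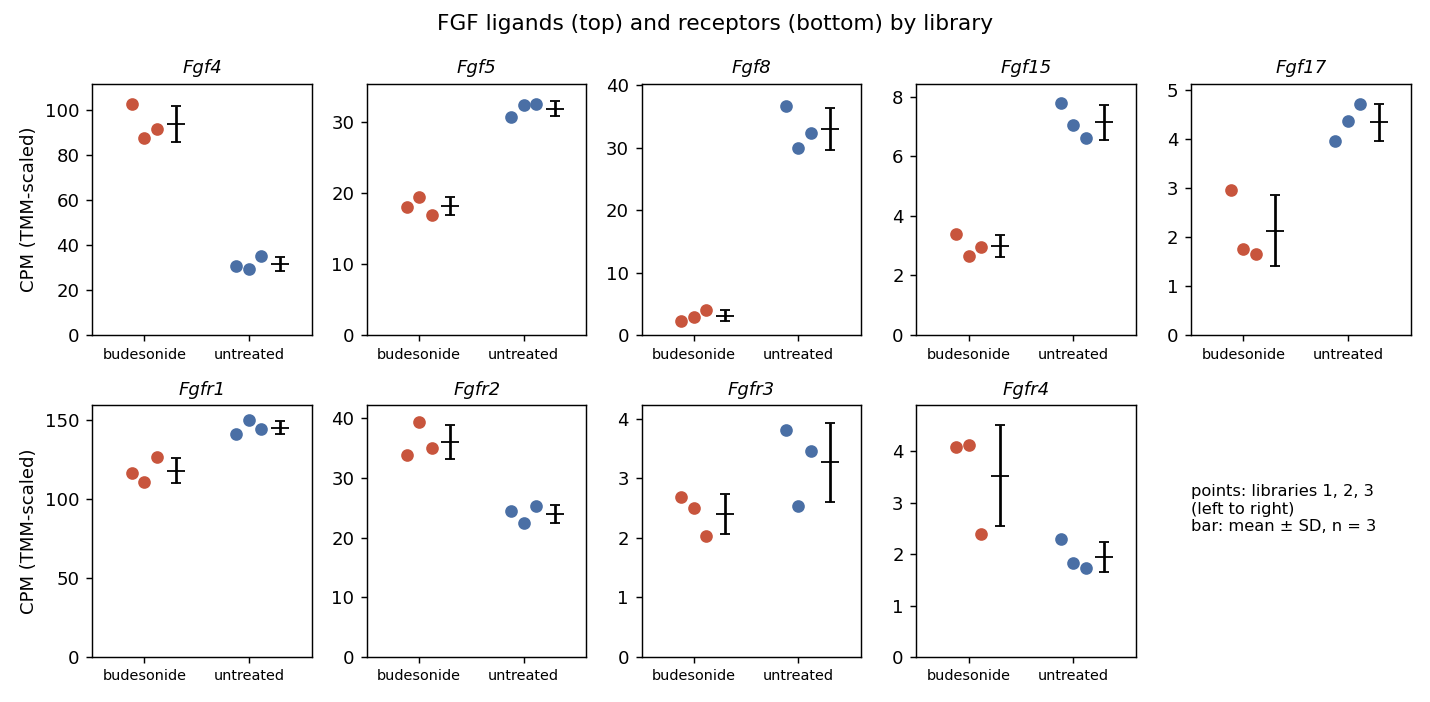
Each panel plots 1 gene, with counts per scaled library size (CPM, TMM-scaled) on the vertical axis, the 3 budesonide libraries at the left, the 3 untreated libraries at the right, and the mean ± SD (n = 3) as a bar. The groups stand apart for every gene other than Fgfr3, whose lowest untreated library (2.53 CPM) lies below the highest budesonide library (2.68 CPM).

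The libraries held 5666168 to 7476862 counted reads, and 3 reads corresponded to 0.422 to 0.552 CPM. Pou5f1 (Oct4), the defining pluripotency factor, was at 776.0 ± 48.1 CPM in budesonide and 733.9 ± 7.03 CPM in untreated libraries (SD, n = 3 each). All 10 tested markers of naive pluripotency rose. The summed level of the 11 listed was 1301 to 1429 CPM in budesonide and 584.5 to 648.8 CPM in untreated libraries. Of 12 listed markers of the primitive streak and tailbud all 9 tested fell, and Mesp1, Tbx6 and Wnt3a had too few reads for a test. The sum over the 12 was 21.4 to 24.1 CPM in budesonide libraries, against 293.7 to 306.7 CPM in untreated ones. Some could be tested only through their untreated reads, so that a fall was the only call open to them. Cdx2 held 2, 4 and 3 reads with budesonide and 80, 75 and 59 without, and Sp5 held 1, 3 and 2 against 87, 84 and 61. Of 8 primed epiblast markers 2 rose and 4 fell, and of 5 tested markers of the midbrain-hindbrain boundary Gbx2 fell and 4 did not pass. None of the 4 tested primitive endoderm markers passed (summed level 9.93 to 14.6 CPM in budesonide and 13.5 to 17.3 CPM in untreated libraries). Of 5 tested trophoblast markers Tfap2c rose and Cdx2 and Eomes, both also on the streak list, fell (40.3 to 47.3 CPM with budesonide, 49.2 to 63.3 CPM without). Definitive endoderm gave 2 falls among 3 tested, fibroblasts 2 falls among 4, neural progenitors 2 rises among 2, and shared pluripotency 3 rises and 1 fall among 6. Beside these lists, 15.2% of all tested genes rose and 13.5% fell. No marker of these lists was at 0 in every library. In RNA of whole aggregates, fewer cells of a type and less RNA per cell cannot be told apart.

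Fgf4 is the ligand that pluripotent cells of the early embryo send to the primitive endoderm and trophoblast, and the main FGF ligand of embryonic stem cells. It had 729, 594 and 498 reads in the budesonide libraries, which is 102.7, 87.4 and 91.6 CPM (counts scaled to library size), against 200, 209 and 225 reads in the untreated libraries, which is 30.5, 29.4 and 35.4 CPM. Every budesonide library held more than every untreated library, by a wide margin. The log2 fold change was 1.57 ± 0.09 (SE; 95% interval 1.40 to 1.74; edgeR adjusted p = 1.02e-19), the 41st largest rise among the 17155 tested genes. The naive markers given above rose beside Fgf4, and their part in its change was not tested.

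Fgf8, which is needed for cells to leave the primitive streak and is later made in the tailbud, showed the largest change of the 9 genes. It fell to 16, 20 and 22 reads in the budesonide libraries (2.25, 2.94 and 4.04 CPM), against 240, 213 and 206 reads in the untreated libraries (36.6, 29.9 and 32.4 CPM). The groups were far apart, and reads remained in each budesonide library. Its log2 fold change was -3.44 ± 0.17 (SE; 95% interval -3.79 to -3.09; edgeR adjusted p = 5.75e-21), the 13th largest fall among all tested genes. Over 8-fold, 15 genes fell, which is 0.0874% of all tested genes. The tested streak and tailbud markers fell beside Fgf8, and their part in its change was not tested.

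Fgf17 belongs to the same subfamily as Fgf8 and shares its expression in the streak and the midbrain-hindbrain boundary in the mouse. It had 21, 12 and 9 reads in the budesonide libraries and 26, 31 and 30 reads in the untreated libraries, so that its levels were 2.96, 1.77 and 1.65 CPM with budesonide against 3.96, 4.36 and 4.71 CPM without. The groups did not overlap, and budesonide replicate 1 was the highest of its group. The log2 fold change was -1.0 ± 0.31 (SE; edgeR adjusted p = 0.0109). Without budesonide replicate 2 it was -0.85 and did not pass (adjusted p = 0.0564). Within each library, the ratio of Fgf8 to Fgf17 reads was 0.762, 1.67 and 2.44 with budesonide and 9.23, 6.87 and 6.87 without, a log2 difference of -2.38 (exact two-sided permutation test, p = 0.10, the smallest that 3 against 3 libraries allow, adjusted p = 0.10 over 5 ratios).

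Fgf15, the mouse counterpart of human FGF19, acts as a gut hormone in the adult and is made in neural tissue of the embryo. Counted reads were 24, 18 and 16 in the budesonide libraries (3.38, 2.65 and 2.94 CPM) and 51, 50 and 42 in the untreated libraries (7.77, 7.03 and 6.60 CPM). Every untreated library held more than every budesonide library. The log2 fold change was -1.25 ± 0.25 (SE; edgeR adjusted p = 7.31e-05). In GENCODE M21 the transcripts of Fgf15 share 21.3% of their stretches of 50 bases with transcripts of other genes, mostly with Gm26793 on the opposite strand. Gm26793 itself held 5, 5 and 7 reads with budesonide and 13, 5 and 4 without. Gm39119, which also overlaps Fgf15 exons on the opposite strand, held 1, 4 and 3 reads with budesonide and 6, 6 and 5 without. Both had too few reads for a test. The strand setting of the counting is not given in the sources used here, so reads from the 2 strands cannot be told apart.

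Fgf5, a marker of the epiblast after implantation, had the smallest fold change of the 4 ligands that fell, though the differences between their changes were not tested. It had 128, 132 and 92 reads in the budesonide libraries (18.0, 19.4 and 16.9 CPM), against 201, 230 and 207 in the untreated libraries (30.6, 32.3 and 32.5 CPM). The spread within each group was small beside the gap between them, and the log2 fold change was -0.81 ± 0.11 (SE; 95% interval -1.04 to -0.58; edgeR adjusted p = 1.55e-07). Of the primed epiblast markers, Sox3, a neural and epiblast transcription factor, was at 6.82 ± 1.58 CPM with budesonide and 26.8 ± 1.41 CPM without, whereas Otx2, a factor of the exit from the naive state, was at 52.3 ± 3.21 and 23.2 ± 4.62 CPM in the same order. The primed epiblast markers were thus divided, and their part in the change of Fgf5 was not tested.

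Summed over the 5 ligands, the level per length of exon was 41.2 ± 2.43 CPM per kilobase in budesonide and 52.0 ± 2.45 CPM per kilobase in untreated libraries (SD, n = 3 each), a ratio of 0.792. Without division by length the direction turned, since the summed level was 114.2 to 129.3 CPM in budesonide and 103.1 to 111.6 CPM in untreated libraries. The make-up of that sum was different. Fgf4 made up 73.3%, 69.8% and 71.0% of it in the budesonide libraries and 17.7%, 18.7% and 20.9% in the untreated libraries. Fgf8 made up 3.80%, 5.56% and 7.42% with budesonide and 50.4%, 45.1% and 45.2% without. Fgf5 held 17.7% ± 1.86 with budesonide and 24.5% ± 1.75 without. Fgf15 held 2.37% ± 0.156 with budesonide and 4.49% ± 0.364 without, and Fgf17 held 3.03% ± 0.843 and 4.96% ± 0.516 in the same order. The share of each of the 5 ligands separated the groups (exact two-sided permutation test, p = 0.10 each, the smallest possible, adjusted p = 0.112 over the 9 shares tested). Since Fgf4 rose and the other ligands fell with no overlap of the groups, the result for the share of Fgf4 was fixed by those changes. The shares of a library add up to a whole, so the 5 tests are not separate from each other or from the changes given above.

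**Figure D2:**
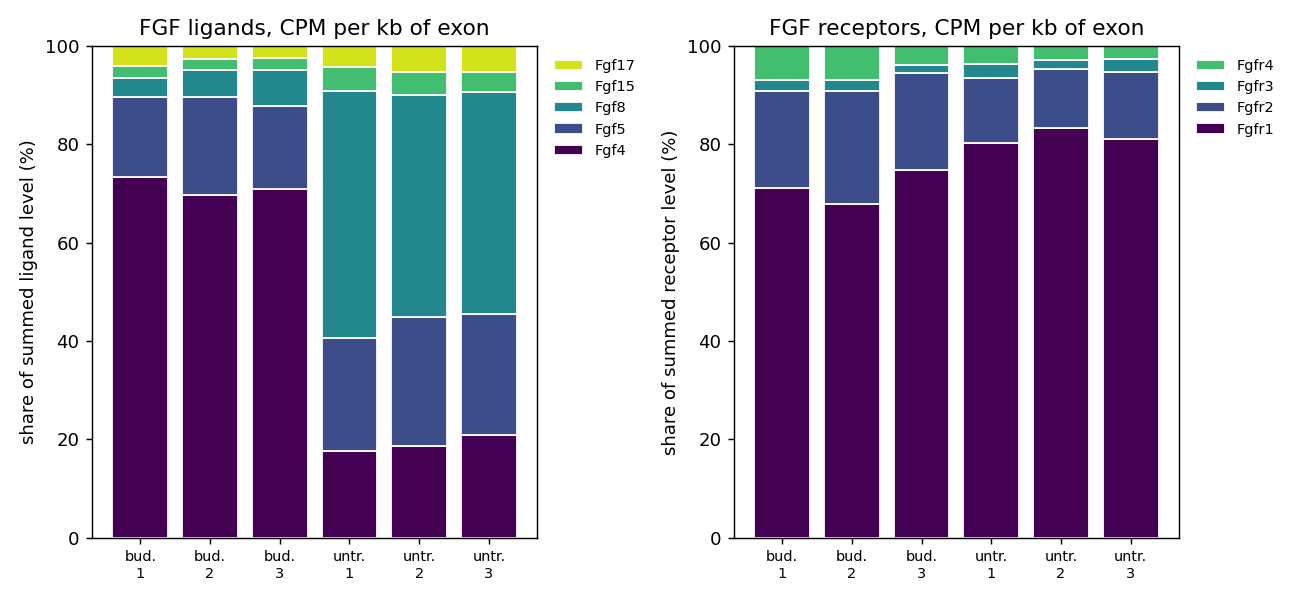
Stacked bars give each gene's percentage of the summed level (CPM per kilobase of exon) of the 5 ligands (left) and of the 4 receptors (right) in each library, with the 3 budesonide libraries (bud.) left of the 3 untreated libraries (untr.). Fgf4 fills 69.8% to 73.3% of the ligand bars with budesonide and 17.7% to 20.9% without, and Fgfr1 is the largest part of every receptor bar.

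By level per length, the order of the ligands with budesonide was Fgf4 (29.4 ± 2.48 CPM per kilobase), Fgf5 (7.25 ± 0.503), Fgf8 (2.28 ± 0.669), Fgf17 (1.26 ± 0.428) and Fgf15 (0.978 ± 0.121). In untreated libraries the order was Fgf8 (24.4 ± 2.49), Fgf5 (12.7 ± 0.415), Fgf4 (9.93 ± 0.993), Fgf17 (2.57 ± 0.222) and Fgf15 (2.33 ± 0.194), on the same scale. With merged exons as the length, the libraries of Fgf17 and Fgf15 overlapped in both groups. With the longest transcript the order turned, and in untreated libraries Fgf15, at 3.65 to 4.295 CPM per kilobase, lay wholly above Fgf17, at 2.35 to 2.79. Fgf8 and Fgf17 overlapped in the budesonide libraries. Within each library, Fgf4 had 45.6, 29.7 and 22.6 times the reads of Fgf8 with budesonide and 0.833, 0.981 and 1.09 times without. The change in that ratio was 32.5-fold (exact two-sided permutation test, p = 0.10, the smallest possible, adjusted p = 0.10 over 5 ratios). Since Fgf4 rose and Fgf8 fell with no overlap of the groups, that p-value was fixed by those changes and adds nothing to them.

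Fgfr1, the main FGF receptor of the epiblast and of embryonic stem cells, was the receptor with the most reads. It had 829, 754 and 688 reads in the budesonide libraries (116.8, 111.0 and 126.5 CPM) and 928, 1066 and 920 in the untreated libraries (141.5, 149.9 and 144.5 CPM). The groups did not overlap, and the log2 fold change was -0.30 ± 0.06 (SE; 95% interval -0.43 to -0.17; edgeR adjusted p = 0.000246). The fall was the smallest of the changes that passed among the 9 genes.

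Fgfr2, which in the mouse embryo is known from the primitive endoderm and trophoblast and is spliced into an epithelial and a mesenchymal form, rose. It had 240, 267 and 190 reads with budesonide (33.8, 39.3 and 34.9 CPM) against 160, 159 and 161 without (24.4, 22.4 and 25.3 CPM). Every budesonide library lay above every untreated library, with a log2 fold change of 0.59 ± 0.11 (SE; 95% interval 0.37 to 0.80; edgeR adjusted p = 2.01e-05). No primitive endoderm marker passed and the trophoblast markers split, as given above, and their part in the rise was not tested. Counts per gene do not separate the splice forms. Of 6 regulators of that splice choice listed, Esrp1, which favours the epithelial form, fell 1.68-fold to 50.9 ± 2.38 CPM with budesonide, against 85.4 ± 1.08 CPM without. Ptbp2, a splicing repressor, fell 1.29-fold, and Rbfox2 rose 1.13-fold in a call (edgeR adjusted p = 0.0238) lost in 6 of 14 alternatives. Esrp2, Ptbp1 and Hnrnpm did not pass (edgeR adjusted p = 0.908, 0.904 and 0.421). Some annotated Fgfr2 exons lie within Ctbp2 on the same strand, covering 2.47% of the stretches of 50 bases, and Ctbp2 was at 273.6 ± 10.4 CPM with budesonide and 267.1 ± 9.79 CPM without (edgeR adjusted p = 0.711).

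Fgfr4, the liver receptor for Fgf15, and Fgfr3, a receptor known for restraining bone growth, were both low. Fgfr4 had 29, 28 and 13 reads with budesonide (4.09, 4.12 and 2.39 CPM) and 15, 13 and 11 reads without (2.29, 1.83 and 1.73 CPM). Budesonide replicate 3 lay just above the highest untreated library. The log2 fold change was 0.88 ± 0.33 (SE; edgeR adjusted p = 0.0413), but the call did not hold with DESeq2 (adjusted p = 0.128), under upper quartile scaling (0.0582) or no scaling factors (0.0667), with no filter on low counts (0.120) and with limma (0.0611). It was also lost without untreated replicate 2 (adjusted p = 0.111) or 3 (0.115), and without budesonide replicate 1 (0.168) or 2 (0.130). Fgfr3 had 19, 17 and 11 reads with budesonide (2.68, 2.5 and 2.02 CPM) against 25, 18 and 22 without (3.81, 2.53 and 3.46 CPM). The groups overlapped, and the log2 fold change of -0.42 ± 0.32 (SE; 95% interval -1.07 to 0.22) did not pass (edgeR adjusted p = 0.363).

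Olfactory and vomeronasal receptor genes, which these cells should not use, gave a background for such levels. The 95th percentile of 1952 of them was 0.430 to 0.529 CPM per kilobase in the budesonide libraries and 0.449 to 0.499 in the untreated ones. Fgfr3, at 0.283 to 0.374 CPM per kilobase with budesonide and 0.354 to 0.532 without, lay within that background in all 3 budesonide libraries and in 2 of the 3 untreated ones. All 5 ligands lay above it in every library on that scale. Fgfr4 was above it in all 3 budesonide libraries, at 0.675 to 1.16 CPM per kilobase, and at 0.488 to 0.646 without budesonide it lay within it in untreated replicate 3. The placing depended on the division by length. Without it, the 95th percentile of 2006 such genes was 1.55 to 2.06 CPM with budesonide and 1.68 to 1.83 CPM in untreated libraries. By that measure Fgfr3 lay above the background in every library. Fgf17 lay below it in budesonide replicate 2 (1.77 against 2.06 CPM) and level with it in replicate 3 (1.65 CPM). Fgfr4 was level with it in untreated replicates 2 and 3. Of the 50-base stretches of Fgfr3, 11.6% are shared with transcripts of other genes, mainly G630022F23Rik, which overlaps it on the opposite strand and held at most 5 reads in any library.

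The summed level of the 4 receptors was 16.8 ± 0.324 CPM per kilobase with budesonide and 18.0 ± 0.174 without (SD, n = 3 each), a ratio of 0.930. Fgfr1 made up 71.1%, 67.9% and 74.7% of it in budesonide libraries and 80.2%, 83.3% and 81.1% in untreated ones. Fgfr2 made up 19.7%, 22.98% and 19.7% with budesonide and 13.2%, 11.9% and 13.6% without. Both shares separated the groups (exact two-sided permutation test, p = 0.10 each, the smallest possible, adjusted p = 0.112 over the 9 shares). Since Fgfr1 fell and Fgfr2 rose with no overlap of the groups, these tests are not separate from those changes. The number of Fgfr2 reads per Fgfr1 read was 0.290, 0.354 and 0.276 with budesonide against 0.172, 0.149 and 0.175 without, a 1.85-fold change. Fgfr1 and Fgfr2 ranked as the highest and second receptor per length in both groups. Fgfr4 and Fgfr3 did not differ beyond their spread in untreated libraries, whereas with budesonide every library of Fgfr4 was above every library of Fgfr3.

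**Figure D3:**
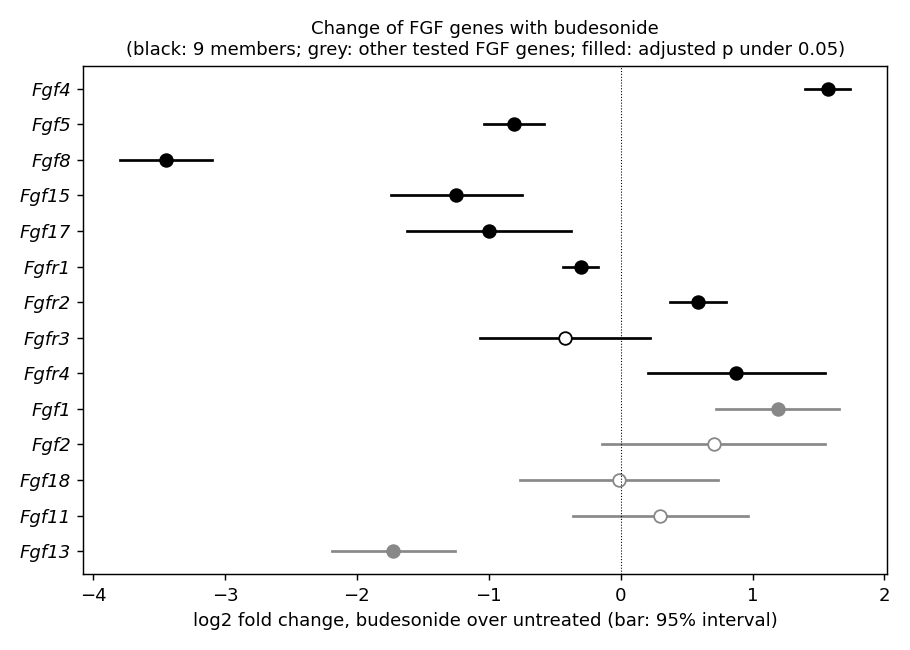
Points give the log2 fold change (budesonide over untreated) and bars its 95% interval from the fit over all genes, for the 9 genes in black and the other 5 tested FGF genes in grey, filled where the adjusted p was under 0.05. Fgf8 stands alone at -3.44, Fgf4 lies highest at 1.57, and the interval of Fgfr3 crosses 0.

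**Figure D4:**
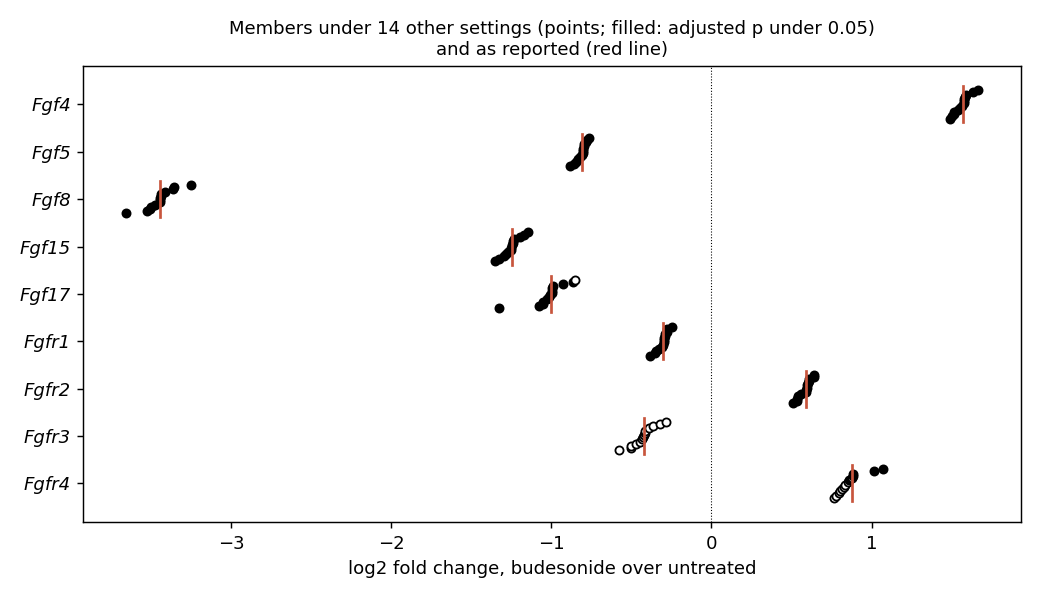
Points give each gene's log2 fold change (budesonide over untreated) under 14 other settings (other scalings, filters or tests, a replicate block, and each library left out), filled where the adjusted p was under 0.05, and the red line gives the value as reported. Fgfr4 mixes filled and open points between 0.77 and 1.07, Fgf17 has 1 open point, and all points of Fgf8 are filled between -3.66 and -3.25.

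RefSeq sequences of the 250 bases before the annotated start (build GRCm38.p6) were at hand for 5 of the 9 genes. Those of the 3 genes that rose and of Fgf5, which fell, are shown, since they let the opposite movement of Fgf4 and Fgf5 be set beside the bases before their starts. The windows are chr7:144861136-144861385 (plus strand) for Fgf4, chr7:130266809-130267058 (minus strand) for Fgfr2, chr13:55152568-55152817 (plus strand) for Fgfr4 and chr5:98253934-98254183 (plus strand) for Fgf5. Each is written 5′ to 3′ in the direction of transcription, and capitals mark every GC box (GGGCGG or its reverse complement CCGCCC), the core that SP and KLF factors bind.
Fgf4: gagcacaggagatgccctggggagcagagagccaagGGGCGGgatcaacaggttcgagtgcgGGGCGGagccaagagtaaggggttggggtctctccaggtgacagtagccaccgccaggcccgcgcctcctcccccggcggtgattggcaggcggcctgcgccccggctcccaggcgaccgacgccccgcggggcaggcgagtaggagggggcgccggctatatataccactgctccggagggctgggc
Fgfr2: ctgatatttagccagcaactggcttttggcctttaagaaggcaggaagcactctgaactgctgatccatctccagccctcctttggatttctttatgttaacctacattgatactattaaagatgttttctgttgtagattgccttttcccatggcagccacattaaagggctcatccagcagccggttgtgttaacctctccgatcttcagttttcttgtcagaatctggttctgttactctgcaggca
Fgfr4: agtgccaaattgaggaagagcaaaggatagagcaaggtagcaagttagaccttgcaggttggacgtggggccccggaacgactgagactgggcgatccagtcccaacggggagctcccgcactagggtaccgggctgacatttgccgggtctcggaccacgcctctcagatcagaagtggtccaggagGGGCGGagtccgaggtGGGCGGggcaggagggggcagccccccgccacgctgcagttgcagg
Fgf5: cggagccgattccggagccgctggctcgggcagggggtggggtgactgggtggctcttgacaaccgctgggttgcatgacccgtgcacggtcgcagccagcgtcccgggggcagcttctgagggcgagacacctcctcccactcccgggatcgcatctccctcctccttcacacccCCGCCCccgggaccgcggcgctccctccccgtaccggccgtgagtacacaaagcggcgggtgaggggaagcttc
The windows of Fgf4, Fgfr4 and Fgf5 held 2, 2 and 1 GC boxes and that of Fgfr2 none, where 32.7% of 32851 windows of the same length held at least 1. No window of the 4 held the letters TATAAA (12.4% of all windows), AGAACA, the core read by the glucocorticoid receptor (16.1%), CTTTGA, read by TCF and LEF (13.8%), CATTGT, read by SOX factors (10.7%), CGGAAG, read by ETS factors (13.6%) or the octamer ATGCAAAT (1.6%). All were searched on both strands, and no match in these 4 windows overlapped another. The windows of Fgfr3, which did not pass the test and is not shown, held 3 and 2 GC boxes. The GC content was 71.2% for Fgf4, 70.8% for Fgf5, 64.0% for Fgfr4 and 44.0% for Fgfr2, beside a median of 52.4%. A match or its lack is a description of these letters in these windows and says nothing of binding.

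Of the 13 other secreted ligands only Fgf1, Fgf2 and Fgf18 had enough reads for a test. Fgf1, a ligand that binds every FGF receptor, rose to 55, 52 and 41 reads in budesonide libraries (7.75, 7.65 and 7.54 CPM), against 21, 26 and 20 reads in untreated ones (3.20, 3.66 and 3.14 CPM). Its log2 fold change was 1.19 ± 0.23 (SE; edgeR adjusted p = 6.33e-05), with no overlap of the groups. Fgf2, the FGF ligand commonly added to cultures of primed cells, was at 2.18 ± 0.933 CPM with budesonide and 1.35 ± 0.410 CPM without (edgeR adjusted p = 0.223), and Fgf18 at 2.10 ± 0.475 and 2.08 ± 0.482 CPM. The other 10 ligands held at most 14 reads in any library. Among the intracellular FGF homologous factors, which bind sodium channels and are not secreted, Fgf13 fell 3.30-fold, to 2.95 ± 0.819 CPM with budesonide against 9.61 ± 0.654 CPM without, and Fgf11 did not pass (2.88 ± 0.187 and 2.34 ± 0.451 CPM, edgeR adjusted p = 0.553).

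Transcripts of proteins that help FGF bind its receptor moved in both directions. Of 16 tested co-receptors and FGF binding proteins 3 rose and 7 fell (median log2 fold change -0.52). The heparan sulfate proteoglycan syndecan 4, Sdc4, rose 2.23-fold to 239.7 ± 1.92 CPM with budesonide, against 107.5 ± 10.9 CPM without, and the glypican Gpc4 rose 1.68-fold. The glypican genes Gpc6 and Gpc1 fell 3.80-fold and 2.01-fold. Of 14 enzymes that build or edit heparan sulfate 1 rose and 6 fell (median -0.25). Beside both lists, 15.2% of all tested genes rose and 13.5% fell. The 6-O-sulfotransferases split, with Hs6st1 1.57-fold higher (68.5 ± 2.7 CPM with budesonide against 43.7 ± 1.17 without) and Hs6st2 2.0-fold lower (23.6 ± 2.18 against 47.3 ± 2.91). Hs2st1, the 2-O-sulfotransferase, fell 1.39-fold.

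Inside the cell, too, genes changed in both directions. Of 20 receptor adaptors and members of the RAS to ERK cascade 4 rose and 5 fell (median log2 fold change 0.03), but 2 rose with DESeq2, with upper quartile or no scaling factors, with no filter on low counts, and without untreated replicate 2 or 3 or budesonide replicate 1. The docking protein gene Gab1 rose 1.62-fold and the MEK1 gene Map2k1 1.21-fold. The ERK1 gene Mapk3 fell 1.43-fold and the kinase gene Braf fell by 0.32 on the log2 scale. The MEK2 gene Map2k2, named here as the counterpart of Map2k1, fell 1.19-fold, though its groups overlapped (edgeR adjusted p = 0.0101). Feedback inhibitors gave 3 rises and 3 falls among 9 tested (median -0.03), with the sprouty gene Spry1 1.59-fold and the phosphatase gene Dusp4 1.39-fold higher, and Spred3 2.01-fold and the receptor antagonist gene Il17rd 1.78-fold lower. Spry2, Spred2 and Dusp6 did not pass (edgeR adjusted p = 0.106, 0.525 and 0.838). Among 7 tested ERK target genes 2 rose and 2 fell (median 0.01). The ETS factor genes moved apart, Etv5 being 1.36-fold higher at 318.7 ± 7.77 CPM with budesonide against 235.0 ± 4.10 CPM without, and Etv4 2.02-fold lower at 27.8 ± 2.43 against 56.1 ± 2.31 CPM. The immediate early gene Egr1 rose 1.29-fold, and Myc fell 1.33-fold in a call lost in 4 of 14 alternatives. Over all 77 tested genes of the lists beyond the 9, 15 rose and 26 fell (median -0.06), beside 15.2% and 13.5% of all tested genes. With no scaling factors 11 rose and 32 fell.

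**Figure D5:**
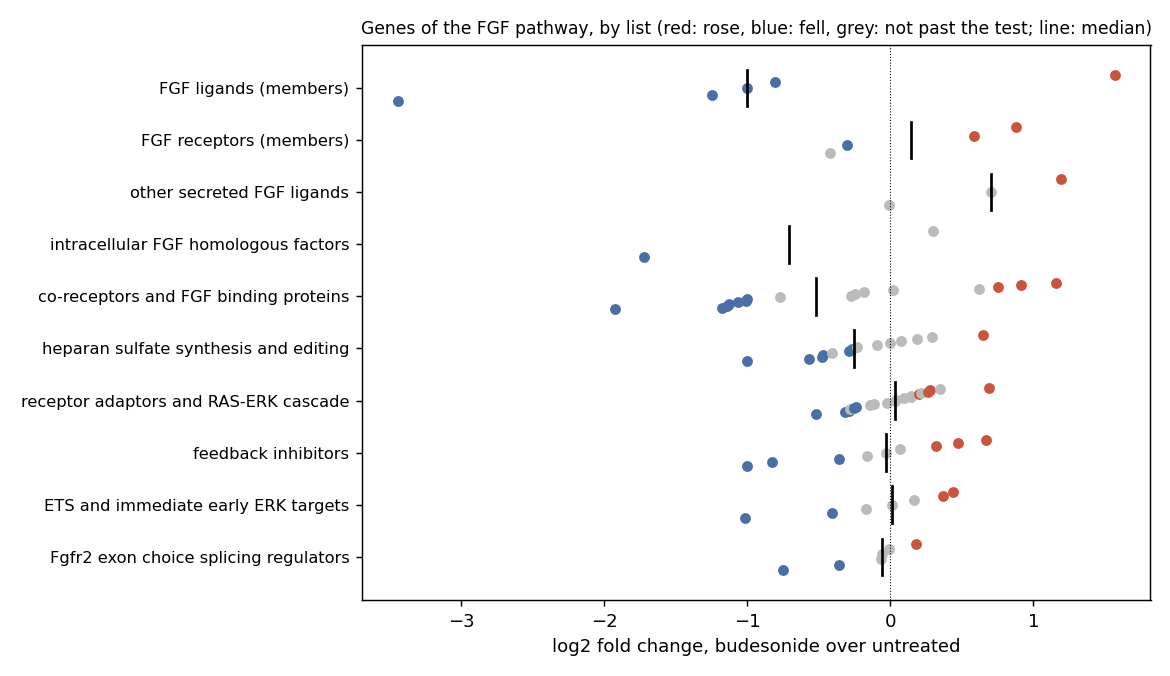
Each point is the log2 fold change (budesonide over untreated) of 1 tested gene, grouped by its place in the FGF pathway, in red where it rose and blue where it fell at an adjusted p under 0.05, grey otherwise, with the list's median as a line. The ligands span -3.44 to 1.57, while the receptor adaptors and RAS-ERK cascade span -0.52 to 0.69.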

How the data were processed

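The authors deposited raw counts per gene symbol and a table of normalized counts (a signal), and each normalized value, checked here, equalled its count over a library factor (largest deviation 0.00562 reads). STAR 2.7.5c, featureCounts 2.0, cutadapt 2.5, bcl2fastq, DESeq2 and build GRCm39 are named, with no roles, in the submitters' processing notes, and per the labels' protocols the libraries were stranded mRNA. Their parameters and the strand setting are not given in those sources. Titles gave each library's group and number. The 9 genes and all lists were chosen with earlier results of these data known.

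The test was edgeR 4.0.16 in R 4.3.3 on genes passing filterByExpr (at least 10 reads, 15 in total), TMM-scaled, with robust quasi-likelihood fits on group alone and p-values adjusted by Benjamini-Hochberg over every tested gene (threshold 0.05). Standard errors came from the F statistic. CPM are TMM-scaled. Depth was 5666168 to 7476862 reads, and a floor of 3 reads is 0.422 to 0.552 CPM. Libraries of the same group differed by a chi-square of 1.42 to 3.12 per gene (1 is sampling noise), and each was counted as 1 sample. Levels per length used the merged exons of GENCODE M21 (GRCm38, another build than the counts). Named were the 9 genes, every other tested FGF gene, and per list up to 2 risen and 2 fallen genes by smallest adjusted p with a mean of at least 1 CPM. Genes that did not pass are named as well for the feedback inhibitors and the splicing regulators. In simulated data for budesonide against untreated (17155 genes), 22%, 54%, 92% and 96% of 50 genes changed 1.25-, 1.5-, 2- and 4-fold were recovered, with 9 false calls. Alternatives were DESeq2 1.42.0, RLE, upper quartile or no scaling, 2 other filters, a replicate block, limma 3.58.1 on log2 of normalized counts plus 1, an adjusted p under 0.01, each library left out, and other gene lengths. Fits with 1 library left out still had 2 or more libraries per group.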

Additional observations from a re-analysis of the deposited data

How the results depend on the processing

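Fgf4, Fgf5, Fgf8, Fgf15, Fgfr1 and Fgfr2 kept their direction and their call in all 15 alternatives, with log2 fold changes of 1.49 to 1.66, -0.89 to -0.76, -3.66 to -3.25, -1.35 to -1.14, -0.38 to -0.25 and 0.51 to 0.64. Fgf17 ranged from -1.33 to -0.85 and was lost at an adjusted p under 0.01 and without budesonide replicate 2, and Fgfr4 ranged from 0.77 to 1.07 and was lost in 10 of 15. The count of receptors that rose was therefore 1 with upper quartile scaling, no scaling factors, no filter on low counts, DESeq2, limma and an adjusted p under 0.01, and 1 to 2 with a library left out. The count of ligands that fell was 3 to 4 with a library left out, and of other pathway genes 11 to 17 rose and 23 to 26 fell. Of those pathway genes 11 rose and 29 fell with upper quartile scaling, and 11 rose and 32 fell with no scaling factors. Of all genes changed, the share that rose was 52.9%, but 43.1% with upper quartile scaling and 38.6% with no scaling factors. Fgf18, near no change, at -0.0096, had the opposite sign with DESeq2 (0.0053) and limma (0.034), and ranged from -0.155 to 0.183 with a library left out.

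The difference in share of the summed ligand level (budesonide minus untreated, percentage points) was 52.2 for Fgf4, -6.87 for Fgf5, -41.3 for Fgf8 and -2.12 for Fgf15. With no division by length it was 48.7, -14.4, -27.9 and -4.13, and for Fgf15 -3.04 with the longest transcript. The summed ligand level was lower with budesonide per length (ratio 0.792, or 0.756 with the longest transcript) but higher with no division by length. In untreated libraries Fgfr3 and Fgfr4 traded places with the longest transcript.

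Same-numbered libraries did not deviate together (Pearson r of 0.04, 0.06 and -0.02 over genes), so the numbers were not taken as pairs. With the replicate block 2649 genes rose and 2337 fell, against 2601 and 2316 without it, and no call of the 9 genes changed.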

Other observations

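In the order of RefSeq protein-coding genes (GRCm38.p6), Fgf3, Fgf4 and Fgf15 follow each other, with Ano1 before them and LTO1 and then Ccnd1 after them, genes named here for their position. Fgf4 rose 2.97-fold with budesonide and its neighbour Fgf15 fell 2.37-fold, and within each library Fgf4 had 30.4, 33.0 and 31.1 times the reads of Fgf15 with budesonide and 3.92, 4.18 and 5.36 times without (exact two-sided permutation test, p = 0.10, the smallest possible, adjusted p = 0.10 over 5 ratios). Here too the p-value was fixed by the separate changes of the 2 genes, whose groups did not overlap. Fgf3, a ligand of the streak and inner ear, held 2, 3 and 8 reads with budesonide and 5, 4 and 4 without, too few for a test. Ano1, a chloride channel gene, was at 4.76 ± 1.51 CPM with budesonide and 4.44 ± 0.0527 CPM without (edgeR adjusted p = 0.779), and the cyclin D1 gene Ccnd1 fell 1.64-fold, to 73.1 ± 6.81 CPM with budesonide against 120.2 ± 7.95 CPM without.

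The genes most like 3 of the members over the 6 libraries were sought by the root mean square difference of log2 CPM, each gene centred on its own mean, among 11078 genes averaging 5 CPM or more. Nearest to Fgf8 were the hindbrain patterning gene Hoxb1 (difference 0.318), the lipoxygenase gene Alox15 (0.350) and Foxa2, a factor of endoderm and notochord (0.402). For Fgf4 they were Ccdc85a (0.0157), Cpt1a, which admits fatty acids to mitochondria (0.0862), and Zfp57, which guards imprints (0.0882). For Fgfr1 they were Armcx4 (0.0248), the lipoprotein receptor gene Lrp1 (0.0255) and the translation initiation gene Eif3b (0.0277). With 2 groups of 3 libraries such likeness mostly reflects the size of the group difference.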
